A study of Homo sapiens with 6 samples.

Results

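The PARP family members PARP1, PARP2, PARP4, PARP8, PARP9, PARP10, PARP12 and PARP14 and the ubiquitin ligase DTX3L were followed across the RNA-seq libraries of BxPC-3 cells. They are 9 of the 26255 genes in the files and were taken by gene symbol. Each symbol was found in every file, and all 9 passed the filter on low values, a 6-library mean of 1 FPKM or more. FPKM are fragments assigned to a gene, scaled to the gene's exon length and the library's size. BxPC-3 is an established human pancreatic cancer cell line that grows as epithelial cells, and it was the one line sequenced. The 3 groups had 2 libraries each: Parent (no treatment), NC-1 (negative control treatment) and miR-4711-5p (treatment with the microRNA miR-4711-5p), with RNA taken 36 h after transfection. The sources used here do not say whether the libraries of a group came from separate cultures, so p-values measure the spread between these libraries, which may be technical.

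PARP enzymes move ADP-ribose from NAD onto proteins and nucleic acids. PARP1 and PARP2 sit in the nucleus, bind broken DNA and build long ADP-ribose chains that call in repair factors such as XRCC1. PARP10, PARP12 and PARP14 add single ADP-ribose units, PARP9 works in a complex with DTX3L, and these 5 genes are known as interferon-stimulated genes. Interferon signalling reaches such genes through transcription factors, STAT2 and IRF9 among them, that act at the interferon-stimulated response element, whose core is GAAA, any 2 bases, and GAAA again.

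The values are FPKM, which are divided by gene length, so levels can be compared between genes only roughly, as the annotation is not given. They summed to between 493145 and 550772 per library, 16597 to 17305 genes were above 0, and the depth in reads is unknown. Steps between the lowest values gave relative depths of 0.751 (NC-1 replicate 1) to 1.207 (miR-4711-5p replicate 2) against Parent replicate 1. These depths are rough, as 29.0% to 36.6% of the low genes compared lay at the ratio used. Epithelial markers summed to 5195 to 6247 FPKM. Among them, the mean of CDH1 was 115 FPKM in Parent, 110 in NC-1 and 29.6 with miR-4711-5p. The mean of KRT19 was 1629, 1274 and 901 FPKM in the same order. EPCAM, KRT7, KRT8 and KRT18 stood at 0.938 to 1.14 times Parent with miR-4711-5p. The 4 leukocyte markers summed to at most 0.257 FPKM, and TYROBP, which defines myeloid and NK cells, was at 0 in all 6 libraries. Of 4 fibroblast markers, 1 had a mean of at least 1 FPKM, and the 4 summed to 1.28 to 2.41 FPKM. The endothelial markers PECAM1 and CDH5 summed to 1.01 to 1.11 FPKM in Parent, 3.02 to 3.35 in NC-1 and 0.516 to 0.665 with miR-4711-5p, mostly through CDH5, and their part in the results was not tested. In all, 12040 genes passed the filter and were tested by limma on log2(FPKM + 1), a scale that understates changes of low genes. A gene was called at a Benjamini-Hochberg adjusted p under 0.05. The smallest p that exact permutation of 2 libraries against 2 allows is 0.333, so the p-values depend on limma's pooling of the spread over genes.

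The promoters of the members are shown because the core element marks some of them and not others. Of the 9 members, 7 have a window of 300 bases around the gene start in RefSeq (GRCh38.p14). PARP4 and PARP10 have none, so their promoters were not searched. The core element, searched on both strands, was in windows of DTX3L, PARP9, PARP14 and PARP12. PARP9 has more than 1 window, and not all of them hold the element. It was in 3.57% of all 35116 RefSeq windows. Capitals mark the element in 100-base stretches that end 10 bases past the start. On the minus strand of PARP9 and PARP12 it reads as its reverse complement. The stretches are chr3:122564248-122564347 (plus strand, DTX3L), chr3:122564291-122564390 (minus, PARP9), chr3:122680749-122680848 (plus, PARP14) and chr7:140062942-140063041 (minus, PARP12).
DTX3L: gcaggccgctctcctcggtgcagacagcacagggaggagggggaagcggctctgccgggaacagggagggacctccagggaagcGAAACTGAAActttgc
PARP9: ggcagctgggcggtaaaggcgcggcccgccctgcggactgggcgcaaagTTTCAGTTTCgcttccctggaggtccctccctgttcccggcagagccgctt
PARP14: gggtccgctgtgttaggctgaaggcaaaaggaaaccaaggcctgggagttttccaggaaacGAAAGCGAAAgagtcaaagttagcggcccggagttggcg
PARP12: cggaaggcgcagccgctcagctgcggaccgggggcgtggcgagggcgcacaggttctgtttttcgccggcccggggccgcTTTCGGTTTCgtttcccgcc

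DTX3L and PARP9 lie head to head, and the capitals in their stretches are the same 10 bases of chromosome 3, chr3:122564332-122564341. The longer form, in which CT follows the core, was in 0.273% of all windows and was found in those of these 2 genes. TTCNNNGAA, the form bound by STAT dimers and found in 7.66% of windows, was in the windows of PARP14 and PARP2. The windows of PARP1, PARP2 and PARP8 had no core element, and the E2F-type strings TTTCGCGC (in 0.515% of windows) and TTTGGCGC (0.652%) were in none of the members' windows. A match describes the letters and is no measurement of binding.

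PARP9 and PARP10 showed the largest increases of the members, and PARP9 reached the higher level. PARP9, which recognises ADP-ribose through its macrodomains, stood at 23.9 and 23.6 FPKM in Parent, 28.6 and 27.7 in NC-1, and 71.7 and 68.9 with miR-4711-5p. The groups did not overlap and followed the order Parent, NC-1, miR-4711-5p. The mean with miR-4711-5p was 70.3 ± 2.01 FPKM (SD, n = 2), which is 2.96 times that of Parent and 2.50 times that of NC-1. By limma the difference from Parent was 1.53 (SE 0.0469, adjusted p = 3.30e-06) and that from NC-1 was 1.29 (adjusted p = 5.74e-06).

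DTX3L, the E3 ubiquitin ligase that partners PARP9, rose less than PARP9. It was at 24.9 and 23.8 FPKM in Parent, 29.8 and 29.0 in NC-1, and 48.5 and 46.5 with miR-4711-5p. Its mean with miR-4711-5p was 1.95 times that of Parent (limma difference 0.94, SE 0.0497, adjusted p = 1.73e-05) and 1.62 times that of NC-1 (0.67, adjusted p = 8.45e-05). The ratio of PARP9 to DTX3L within a library, which no scaling between libraries can change, was 0.961 and 0.990 in Parent, 0.959 and 0.957 in NC-1, and 1.48 in both miR-4711-5p libraries. The partners thus had near equal FPKM in the 4 control libraries and unequal FPKM in both miR-4711-5p libraries. On GRCh37 the genes overlap by 240 bases, PARP9 at chr3:122246771-122283424 on the minus strand and DTX3L at chr3:122283185-122294050 on the plus strand. The kit was stranded, and whether the counting used strand is not given in the sources used here.

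PARP14, a large macrodomain enzyme known as a co-activator of STAT6, lies further along chromosome 3 at chr3:122399686-122449687 (GRCh37). Its levels were 17.9 and 17.3 FPKM in Parent, 23.8 in both NC-1 libraries, and 46.5 and 43.6 with miR-4711-5p. The mean with miR-4711-5p was 2.56 times that of Parent (limma difference 1.31, SE 0.0526, adjusted p = 5.88e-06) and 1.89 times that of NC-1 (0.89, adjusted p = 3.10e-05). PARP14 showed the highest NC-1 level relative to Parent of the 9 members, 1.35 times (limma difference 0.42, adjusted p = 0.00281).

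PARP10 and PARP12 add single ADP-ribose units, and PARP12 carries zinc fingers that bind RNA. PARP10 had 8.48 and 8.05 FPKM in Parent, 10.9 and 10.3 in NC-1, and 26.8 and 24.1 with miR-4711-5p. Its mean with miR-4711-5p was 3.08 times that of Parent, the highest ratio of the members, and limma gave 1.51 (SE 0.0682, adjusted p = 9.30e-06). PARP12 had 18.4 and 18.8 FPKM in Parent, 20.1 and 20.5 in NC-1, and 36.2 and 34.2 with miR-4711-5p. For PARP12 the ratio to Parent was 1.89 (limma difference 0.88, SE 0.0513, adjusted p = 2.51e-05). Both genes also rose against NC-1, PARP10 by 1.19 (limma adjusted p = 2.80e-05) and PARP12 by 0.77 (adjusted p = 5.34e-05), and neither gene's groups overlapped.

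**Figure D1:**
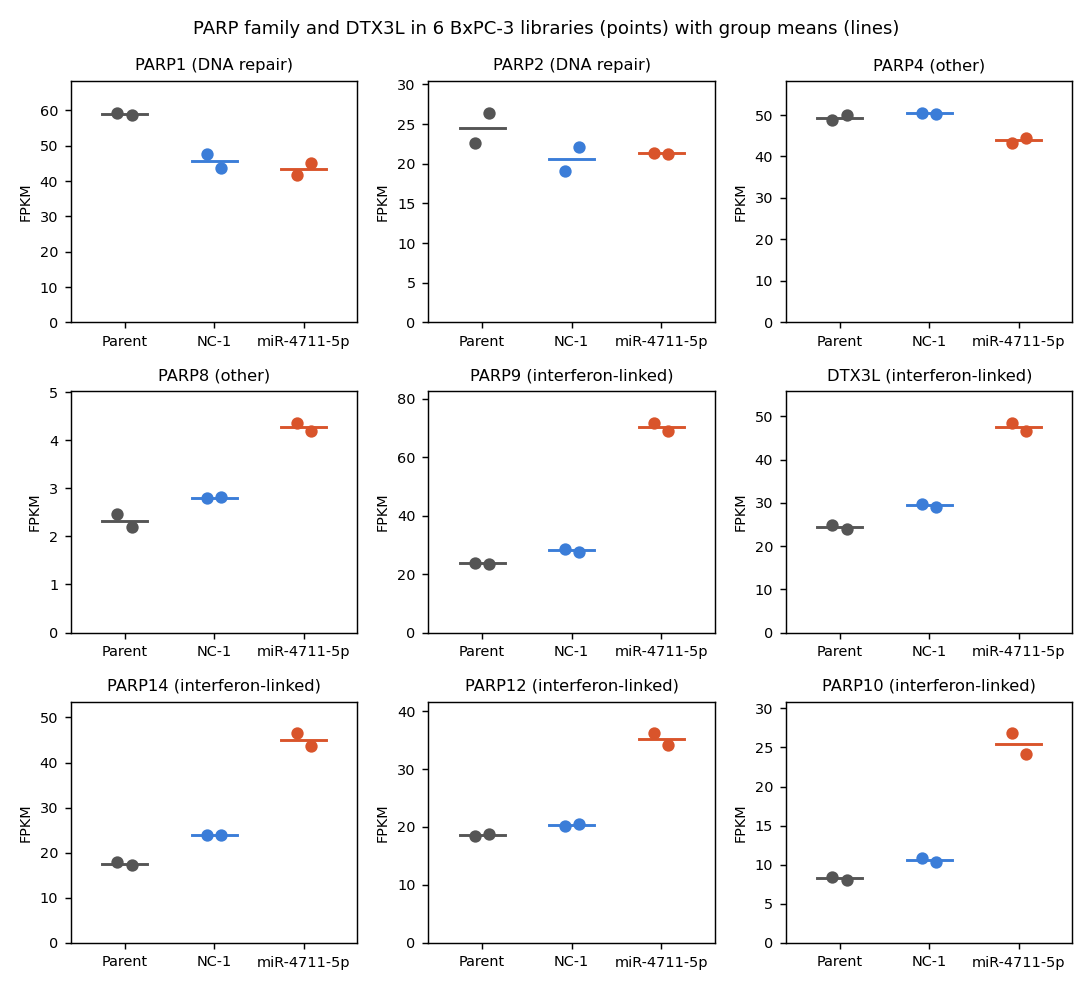
FPKM (vertical axes, each starting at 0) of the 9 genes in the Parent, NC-1 and miR-4711-5p libraries, with 1 point per library and a line at each group mean (n = 2). For the 5 interferon-linked genes and PARP8, both miR-4711-5p points lie above all 4 control points, as in 23.8% of all tested genes. For PARP1 and PARP2 both Parent points lie above the other 4, as in 20.7%.

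Of the DNA-repair members, PARP1 was lower in both transfected groups than in Parent. PARP1, the main sensor of DNA strand breaks, had 59.4 and 58.7 FPKM in Parent, 47.8 and 43.8 in NC-1, and 41.6 and 45.1 with miR-4711-5p. Parent stood above the other groups, and the NC-1 and miR-4711-5p libraries overlapped. PARP1 fell with miR-4711-5p to 0.735 times the Parent mean (limma difference -0.44, 95% interval -0.58 to -0.29, adjusted p = 0.00131) and in NC-1 to 0.775 times (-0.36, interval -0.50 to -0.22, adjusted p = 0.00691). Without Parent replicate 1 the NC-1 call was lost (limma adjusted p = 0.0506). Between miR-4711-5p and NC-1 the difference was -0.08, with a 95% interval from -0.22 to 0.07 (limma adjusted p = 0.360).

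PARP2, which shares the break-sensing role of PARP1, passed no test. It had 22.6 and 26.5 FPKM in Parent, 19.0 and 22.1 in NC-1, and 21.3 in both miR-4711-5p libraries. The Parent libraries were above the other 4, and the NC-1 and miR-4711-5p libraries overlapped. The limma differences were -0.19 against Parent (95% interval -0.41 to 0.02, adjusted p = 0.131), 0.05 against NC-1 (interval -0.17 to 0.27, adjusted p = 0.698) and -0.24 for NC-1 against Parent (interval -0.46 to -0.03, adjusted p = 0.0909). Reads of PARP1 may be shared with the 2 pseudogenes annotated for it, and those of PARP4 with 3.

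The promoter stretches of PARP1 (chr1:226408084-226408183, minus strand) and PARP2 (chr14:20343545-20343644, plus strand) from the same RefSeq windows are given beside those of the interferon-linked genes. They hold no capitals, since capitals mark the core element alone and it was absent from both. None of the other searched strings fell within these 100 bases either.
PARP1: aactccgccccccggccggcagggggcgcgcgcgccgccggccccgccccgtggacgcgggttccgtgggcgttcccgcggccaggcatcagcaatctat
PARP2: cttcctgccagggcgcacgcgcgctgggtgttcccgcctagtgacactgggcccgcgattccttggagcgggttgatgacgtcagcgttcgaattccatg

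The remaining members moved in opposite directions. PARP4, the PARP of the vault particle, had 48.8 and 49.9 FPKM in Parent, 50.6 and 50.2 in NC-1, and 43.2 and 44.6 with miR-4711-5p. Both miR-4711-5p libraries thus lay below all 4 controls, as in 26.3% of all tested genes. PARP4 fell to 0.889 times Parent (limma difference -0.17, adjusted p = 0.0197) and 0.870 times NC-1 (-0.20, adjusted p = 0.0111). The limma call against Parent was lost without Parent replicate 2 (adjusted p = 0.0718), miR-4711-5p replicate 1 (0.119) or miR-4711-5p replicate 2 (0.0578), and when all libraries were set to the same FPKM total (0.612). The call against NC-1 was lost without miR-4711-5p replicate 1 (limma adjusted p = 0.0796).

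PARP8, an enzyme that adds single ADP-ribose units, had the lowest level of the 9 genes in every library. It was at 2.46 and 2.19 FPKM in Parent, 2.80 and 2.81 in NC-1, and 4.36 and 4.18 with miR-4711-5p. PARP8 rose 1.84 times over Parent (limma difference 0.67, SE 0.0854, adjusted p = 0.000891) and 1.52 times over NC-1 (0.47, adjusted p = 0.00468). Its groups followed the same order as those of the interferon-linked genes, without overlap.

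Counted over the 9 members, limma called 6 higher and 2 lower in the miR-4711-5p libraries than in Parent, against a background of 18.7% of all tested genes called higher and 24.7% called lower. Against NC-1, 6 were higher and 1 lower, with 18.4% of all tested genes higher and 21.2% lower. The 6 were PARP8 and the 5 interferon-linked genes in both comparisons, which share the miR-4711-5p libraries. All 6 also followed the order Parent, NC-1, miR-4711-5p without overlap, which 8.46% of tested genes did. Both Parent libraries lay above the other 4 in 20.7% of tested genes, PARP1 and PARP2 among them.

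**Figure D2:**
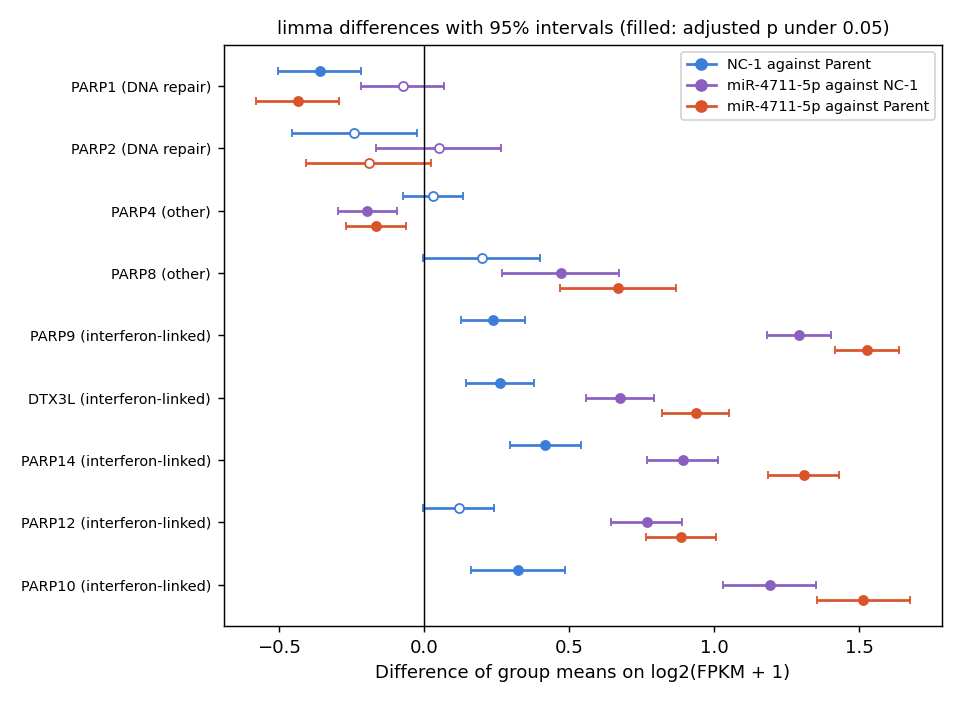
Differences of group means on log2(FPKM + 1) from limma (horizontal axis) with 95% intervals for each gene and comparison. Filled points passed an adjusted p of 0.05. The intervals of the 5 interferon-linked genes and PARP8 against Parent and against NC-1 lie to the right of 0, and those of PARP1 and PARP2 against NC-1 include 0.

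The medians of the DNA-repair and interferon-linked members differed in direction against Parent. The DNA-repair set holds 2 genes, and of these PARP1 was called lower than Parent and PARP2 was not (limma difference -0.19, adjusted p = 0.131). The median log2 difference of the interferon-linked members was 1.31 against Parent and 0.89 against NC-1. That of the DNA-repair members was -0.31 against Parent and -0.01 against NC-1, and that of all tested genes was -0.01 and 0.00. With equal FPKM totals, the DNA-repair median against Parent was -0.18, where that of all tested genes was 0.11. Ordered from the largest increase against Parent down, the interferon-linked genes stood at places 80 (PARP9), 83 (PARP10), 123 (PARP14), 228 (DTX3L) and 251 (PARP12) of 12040. PARP8 stood at place 419, PARP4 at 8478, PARP2 at 8865 and PARP1 at 10897.

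The order of the members by level changed with the treatment. PARP1 was the highest of the 9 in both Parent libraries, PARP4 in both NC-1 libraries and PARP9 in both miR-4711-5p libraries. PARP2 went from place 5 and 3 in Parent to place 8 in both miR-4711-5p libraries. The interferon-linked genes made up 41.3% and 40.0% of the summed FPKM of the 9 in Parent, 48.5% and 48.3% in NC-1, and 67.5% and 65.4% with miR-4711-5p. The share of PARP1 and PARP2 was 36.2% and 37.2% in Parent, 28.6% in both NC-1 libraries, and 18.5% and 20.0% with miR-4711-5p. Their summed FPKM was 82.0 and 85.1 in Parent, 66.8 and 65.9 in NC-1, and 63.0 and 66.4 with miR-4711-5p. Between NC-1 and miR-4711-5p these sums overlapped, while that of the interferon-linked genes went from 113 and 111 to 230 and 217 FPKM. The ratio of PARP9 to PARP1 within a library was 0.403 and 0.402 in Parent, 0.598 and 0.633 in NC-1, and 1.72 and 1.53 with miR-4711-5p.

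Neighbours in this order were often within their spread. In Parent, PARP2 (24.5 ± 2.71 FPKM), DTX3L (24.4 ± 0.728) and PARP9 (23.8 ± 0.217) were not separated (SD, n = 2), whereas the libraries of PARP12 (18.6 ± 0.335) and PARP14 (17.6 ± 0.469) did not overlap. With miR-4711-5p, DTX3L (47.5 ± 1.41), PARP14 (45.1 ± 2.09), PARP4 (43.9 ± 0.969) and PARP1 (43.4 ± 2.48) had overlapping ranges from one to the next. PARP9 at the top and PARP8 at the bottom stood clear of the others there.

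**Figure D3:**
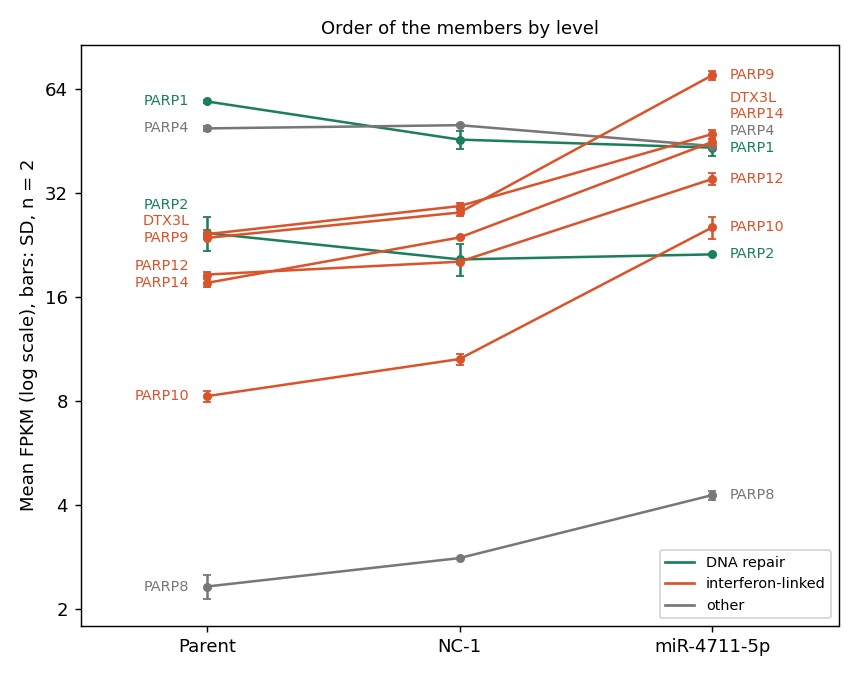
Mean FPKM (vertical axis, log scale) of the 9 genes in Parent, NC-1 and miR-4711-5p, with bars for the SD (n = 2). The lines of the 5 interferon-linked genes and PARP8 go up from Parent through NC-1 to miR-4711-5p, PARP1 goes from the top in Parent to below PARP9, DTX3L, PARP14 and PARP4, and PARP8 stays lowest.

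The negative control itself differed from Parent in these genes. Limma called 4 members higher and 1 lower in NC-1 than in Parent, where 12.1% of all tested genes were called higher and 15.1% lower. The 4 were PARP14, DTX3L (limma difference 0.26, adjusted p = 0.0105), PARP9 (0.24, adjusted p = 0.0121) and PARP10 (0.32, adjusted p = 0.0148), and the lower one was PARP1. PARP12 had a difference of 0.12 (95% interval -0.00 to 0.24, limma adjusted p = 0.131), PARP8 of 0.20 (-0.00 to 0.40, adjusted p = 0.128) and PARP4 of 0.03 (-0.07 to 0.13, adjusted p = 0.637). For the interferon-linked genes, the NC-1 difference from Parent was 13.3% (PARP12) to 31.9% (PARP14) of the miR-4711-5p difference on the log2 scale. Without NC-1 replicate 1, the limma calls of DTX3L (adjusted p = 0.0569), PARP9 (0.0604) and PARP10 (0.0851) were lost, and without Parent replicate 1 those of PARP9 (0.0513) and PARP10 (0.0565). PARP10 was lost without Parent replicate 2 as well (0.0728), and leaving out NC-1 replicate 1 left 1 member called higher.

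Transcription factors that serve interferon-stimulated genes were measured in the same libraries. IRF9 had 26.7 and 26.0 FPKM in Parent, 36.5 and 38.5 in NC-1, and 79.6 and 75.4 with miR-4711-5p. It rose 2.94 times over Parent (limma difference 1.52, adjusted p = 3.95e-06), and STAT2 rose 2.32 times (1.16, adjusted p = 1.61e-05). Both are among the factors known to act at elements of this kind, and their binding to the members' promoters was not tested. STAT6, the partner of PARP14, fell to 0.791 times Parent (limma difference -0.33, adjusted p = 0.00189), and against NC-1 its difference was -0.11 (adjusted p = 0.127). STAT3 and IRF1 were not called against Parent, with IRF1 at 20.7 to 23.0 FPKM in all 6 libraries. In RNA from whole cultures, more cells that express a gene and more RNA per cell cannot be told apart.

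Other genes of the family moved less than the 5 interferon-linked members, and these others were not sorted by their response to interferon. PARP11 was not called against Parent (limma difference -0.18, adjusted p = 0.232). It had 1.34 to 1.51 FPKM in the control libraries and 1.07 and 1.18 with miR-4711-5p. Of 9 other PARP family genes, limma called 4 higher and 0 lower in the miR-4711-5p libraries than in Parent, beside 18.7% and 24.7% of all tested genes. ZC3HAV1, the zinc-finger antiviral protein, which has no PARP activity, rose 1.61 times over Parent (limma difference 0.67, adjusted p = 0.000211) and 1.43 times over NC-1. PARP6 rose 1.32 times (0.38, adjusted p = 0.00424). TNKS2, a tankyrase that acts on telomere and Wnt pathway proteins, rose 1.21 times (0.26, adjusted p = 0.0106), and so it did in NC-1, 1.33 times over Parent. TIPARP, a target of the aryl hydrocarbon receptor, rose 1.18 times (0.24, adjusted p = 0.0354). Leaving out miR-4711-5p replicate 1 ended the limma calls of TNKS2 (adjusted p = 0.0819) and TIPARP (0.153), and leaving out Parent replicate 1 (0.150) or miR-4711-5p replicate 2 (0.117) also ended that of TIPARP. The TIPARP call was lost as well with no filter (limma adjusted p = 0.079), no trend (0.059) and only the compared groups (0.0501).

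In the deltex family of DTX3L, 3 of 4 genes passed the filter and DTX1 was listed at 0. DTX4 had 26.5 and 26.3 FPKM in Parent, 34.8 and 33.1 in NC-1, and 15.2 and 14.8 with miR-4711-5p. It fell to 0.568 times Parent and 0.442 times NC-1 (limma differences -0.78, adjusted p = 3.49e-05, and -1.13, adjusted p = 9.77e-06), opposite to DTX3L. DTX3, another ligase of the family, rose 1.45 times over Parent (0.47, limma adjusted p = 0.00255).

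The genes that act with PARP1 and PARP2 at single-strand breaks and in base excision repair were called lower than Parent by limma in 7 of 13 cases with miR-4711-5p, and higher in 0, beside 24.7% and 18.7% of all tested genes. They were LIG1 (a DNA ligase, 0.635 times Parent), XRCC1 (the scaffold recruited by ADP-ribose chains, 0.741 times), NTHL1 (a DNA glycosylase, 0.747 times), UNG (uracil removal, 0.748 times), PCNA (the replication clamp, 0.786 times), APTX (0.788 times) and FEN1 (the flap nuclease, 0.832 times). XRCC1 had 33.3 and 31.9 FPKM in Parent, 25.1 and 26.7 in NC-1, and 24.2 in both miR-4711-5p libraries. Of the 13, 6 were also lower in NC-1 than in Parent, beside 15.1% of all tested genes. The APTX call in NC-1 was lost with equal FPKM totals (limma adjusted p = 0.0771) and without Parent replicate 1 (0.0747), Parent replicate 2 (0.0574) or NC-1 replicate 2 (0.0766). Between miR-4711-5p and NC-1, LIG1 was lower (limma difference -0.23, adjusted p = 0.0113), and UNG (0.20, adjusted p = 0.0130) and PCNA (0.14, adjusted p = 0.0462) were higher. With all libraries set to the same FPKM total, 5 of the 13 remained lower than Parent, without FEN1 and NTHL1, and 1776 of all 12040 tested genes were lower. NTHL1 lost its limma call against Parent without Parent replicate 1 (adjusted p = 0.0775) or miR-4711-5p replicate 1 (0.121). Each of the 3 calls against NC-1 was lost without miR-4711-5p replicate 1 (LIG1 0.0846, UNG 0.0614, PCNA 0.104, limma adjusted p) and without at least 1 NC-1 library.

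Of 9 cofactors, readers and erasers of ADP-ribose, 7 passed the filter. ADPRHL2, the hydrolase that removes ADP-ribose from serine, rose 1.28 times over Parent (limma difference 0.35, adjusted p = 0.00278) and 1.29 times over NC-1. RNF146 was called higher than Parent (limma adjusted p = 0.0445) and CHD1L lower (0.0403), and both calls were lost without any one of the Parent or miR-4711-5p libraries. Both looser filters and the replicate block ended both calls too, and no trend ended that of RNF146. The CHD1L call was also lost with only the compared groups, without either NC-1 library and with equal FPKM totals (-0.04, limma adjusted p = 0.594). MACROD1, a macrodomain hydrolase of ADP-ribose, was called higher than NC-1 (0.36, limma adjusted p = 0.0361), a call lost under 9 alternatives. These were no trend, both looser filters, only the compared groups, and leaving out Parent replicate 1 (limma adjusted p = 0.0546), Parent replicate 2 (0.0539), NC-1 replicate 2 (0.175), miR-4711-5p replicate 1 (0.0878) or miR-4711-5p replicate 2 (0.188). PARG, which degrades ADP-ribose chains, had 6.87 to 7.39 FPKM in the 6 libraries. HPF1, the partner that directs PARP1 to serine, had a limma difference of -0.25 against Parent (adjusted p = 0.193).

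Among genes of NAD supply, 4 of 7 passed the filter. NAMPT, the rate-limiting enzyme of NAD salvage, had 63.5 and 68.4 FPKM in Parent, 77.8 and 81.3 in NC-1, and 101 and 98.0 with miR-4711-5p, a rise of 1.51 times over Parent (limma difference 0.59, adjusted p = 0.000174). NAPRT, an enzyme of the route from nicotinic acid to NAD, had 68.6 and 67.5 FPKM in Parent, 53.1 and 53.6 in NC-1, and 38.9 and 41.8 with miR-4711-5p. This was a fall to 0.593 times Parent (limma difference -0.74, adjusted p = 4.56e-05). The 2 NAD genes thus moved in opposite directions. NMNAT1, a nuclear enzyme of NAD synthesis, was also lower than Parent (-0.29, limma adjusted p = 0.00891), a call lost without miR-4711-5p replicate 1 (0.0662) and with equal FPKM totals (-0.16, adjusted p = 0.0703).

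PARP9, DTX3L and PARP14 lie within 203 kb of chromosome 3, so the genes around them were examined. Of 13 other coding genes within 500 kb, 11 were tested, and limma called 0 higher and 2 lower than Parent with miR-4711-5p, CSTA (limma difference -0.54) and PDIA5 (-0.80), beside 18.7% and 24.7% of all tested genes. Against NC-1, limma called 0 higher and 4 lower, CSTA (-0.33), PDIA5 (-0.95), CD86 (-0.63) and SLC49A4 (-0.20), beside 18.4% and 21.2% of all tested genes. PARP15, which lies between DTX3L and PARP14, had a difference of 0.28 (adjusted p = 0.123 by limma) at means of 0.928 FPKM in Parent and 1.34 with miR-4711-5p.

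**Figure D4:**
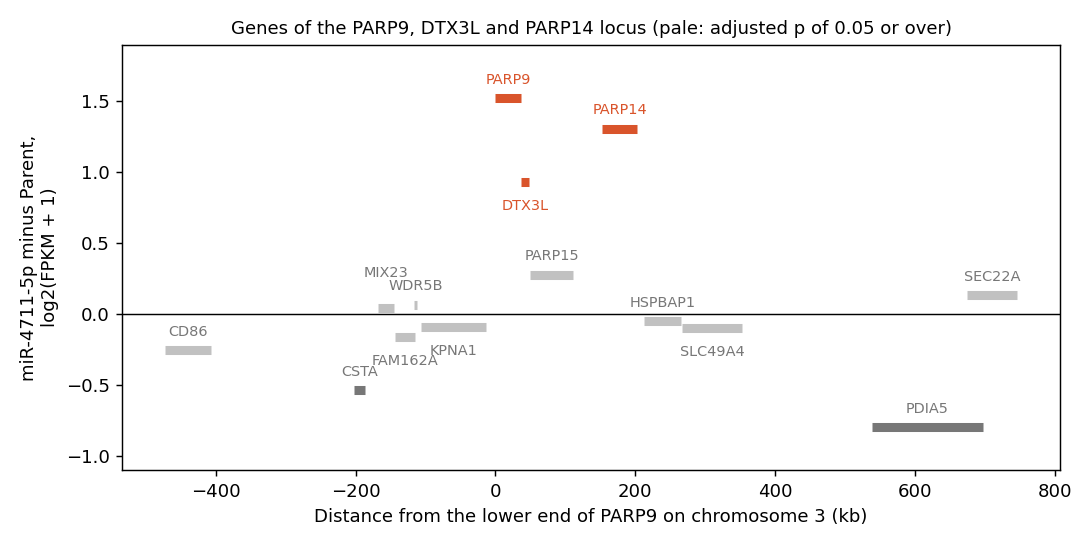
Difference between miR-4711-5p and Parent on log2(FPKM + 1) (vertical axis) for the tested coding genes around PARP9, DTX3L and PARP14, drawn to scale by distance in kb from the lower end of PARP9 (horizontal axis). The 3 coloured members lie at 0.94 to 1.53, whereas the 11 grey neighbours lie at 0.28 or below, and pale bars did not pass an adjusted p of 0.05.

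The seed of the transfected microRNA was searched for in the members' mRNAs. The mature sequence from RefSeq is printed with its seed, bases 2 to 8, in capitals.
hsa-miR-4711-5p: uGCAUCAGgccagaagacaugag
The matching sites are CTGATGC and TGATGCA, and CTGATGCA holds both. A site was in the longest 3′ UTR (GENCODE annotation on GRCh37) of 18.4% of the 11183 tested genes with such a UTR, and in any annotated one of 20.5%. It was in PARP9 and PARP10 among the 9 members, and the other 7 had none. Both genes rose with miR-4711-5p. The PARP9 site, with the match in capitals, lies at chr3:122254806-122254813 on the minus strand, in 1 of 6 annotated transcripts with a 3′ UTR.
PARP9 site: tcttttgttgCTGATGCAttttacattg

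Genes with the pattern nearest to that of a member over the 6 libraries were found by Euclidean distance, after each gene's Parent mean on log2(FPKM + 1) was subtracted. For PARP9 they were OAS2 (distance 0.0993) and OAS3 (0.109), which make the 2-5A signal of the antiviral response, PARP10 (0.145), UBE2L6 (0.154), an enzyme of ISG15 conjugation, and PMAIP1 (0.157), which encodes NOXA. For PARP14 they were MACC1 (0.153), KRT80 (0.169), C3orf52 (0.176), TNFAIP3 (0.176), an inhibitor of NF-κB, and EDN1 (0.178), the precursor of endothelin. For PARP1 they were MAD2L2 (0.0967), FANCD2 (0.0990), a Fanconi anaemia repair protein, MTHFD1 (0.109), CDR2L (0.117) and KIF4A (0.120), a mitotic kinesin.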

How the data were processed

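Strand-specific mRNA libraries of 2 Parent, 2 NC-1 and 2 miR-4711-5p samples were sequenced. The authors deposited FPKM per gene symbol, normalized for exon length and library size, and not counts. The submitters' processing notes name hg19, TopHat2 2.1.1, Bowtie2 2.3.5.1, SAMtools 1.2, Cufflinks 2.2.1 and Cuffdiff, and the methods of the study name other versions. The annotation, strand option and normalization option are not given in the sources used here. FPKM give no read counts, so no count model or counting interval was used, and the number of libraries limits the precision.

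Groups were taken from the treatment labels. Genes whose 6-library mean reached 1 FPKM were fitted on log2(FPKM + 1) with limma 3.58.1 (R 4.3.3), with the 3 groups in one fit and eBayes with a trend, which gave 3 residual and 4.15 prior degrees of freedom. Tests were two-sided with Benjamini-Hochberg adjustment over 12040 genes, and the fit was tested on simulated data. Ratios are of mean FPKM without a pseudocount. The comparisons share their groups. Sites and promoter strings were searched with Python 3.11.15 and pandas 2.3.3 by symbol (10593 genes) or older symbol (590 genes) in GENCODE on GRCh37, and in RefSeq windows on GRCh38.p14. No coordinates were moved between builds. Locations are GRCh37, and those of promoter stretches GRCh38.p14.

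All 9 members were named, and pathway genes where called or where they partner a member, and 1 gene of the interferon signalling list is not reported here. The members and lists were chosen with earlier results of these data known. The alternatives were a pseudocount of 0.1, other filters, median-of-ratios scaling, no trend, only the compared groups, a replicate block and leaving out each library. Setting all libraries to the same FPKM total and the search of chromosome 3 neighbours were added after the data were seen.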

Additional observations from a re-analysis of the deposited data

How the results depend on the processing

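The 6 increases over Parent and over NC-1 were called under all alternatives run. Of 378 values for the 9 members, 364 kept direction and call, 12 lost the call, 1 gained it and 1 changed sign, and of 728 values for called pathway genes 78 lost the call. With each library left out in turn, members called lower than Parent numbered 1 to 2, lower than NC-1 0 to 1, and for NC-1 against Parent 2 to 5 in all, 1 to 4 higher and 0 to 1 lower. For NC-1 against Parent the lowest came without NC-1 replicate 1 or Parent replicate 1. With equal FPKM totals, added after the data were seen, 1 member was lower than Parent, since PARP4 stood at -0.03, and PARP12 was called higher in NC-1 than in Parent (0.20, limma adjusted p = 0.0359). This scaling moved the median of all genes against Parent from -0.01 to 0.11 and the split of calls from 2255 higher and 2975 lower to 4010 and 1776, those against NC-1 to 2923 and 2083, and those of NC-1 against Parent to 2327 and 1000. The DNA-repair median against NC-1, which was near 0, changed sign to 0.040 with equal totals and to 0.0082 and 0.015 without NC-1 replicate 2 or miR-4711-5p replicate 1 (leave-one-out range -0.040 to 0.015), and PARP2 against NC-1 ranged from -0.054 without NC-1 replicate 1 to 0.15 without NC-1 replicate 2. The cause was not tested. Replicate numbers did not pair the libraries (correlations of deviations 0.061, 0.00301 and -0.00892), and the replicate block left 8, 7 and 5 members called, as without it. The longer promoter string was in 2 members and the shorter in 4. With 2 libraries a group, and depth in reads unknown, differences as small as that of PARP4 depended on single libraries.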
